A study of Mus musculus with 41 samples.

Results

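Genes of the proteasome were followed around the day in epidermal stem cells of mice fed either a control diet or one high in fat. The members were all genes whose platform symbol has the form Psm, then a letter from a to g, then a number. Only probe sets with 1 gene were used, and where a gene had several, the brightest on average was taken. The rule found 47 of the 17097 genes measured, on 74 probe sets. They fall into 19 core genes (Psma and Psmb), 19 cap genes (Psmc and Psmd) and 9 others (Psme, Psmf and Psmg).

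The proteasome is the barrel-shaped protease that degrades proteins marked with ubiquitin. Its core is built of outer alpha rings (Psma) and inner beta rings (Psmb), and the protease sites lie on Psmb5, Psmb6 and Psmb7. The cap (Psmc, Psmd) binds the ubiquitin chain, unfolds the substrate with its ATPases (Psmc) and feeds it into the core. Under interferon the catalytic subunits can be replaced by Psmb8, Psmb9 and Psmb10, which gives the immunoproteasome, and the ring of Psme1 and Psme2 (PA28) can dock in place of the cap. Psme3 is a nuclear activator of the same family, Psme3ip1 encodes a protein that binds it, Psmf1 encodes the regulator PI31, and Psmg1 to Psmg4 are chaperones that help to assemble the core. Psmd5 and Psmd9 are counted with the cap by their symbols and are chaperones of its assembly. Epidermal stem cells renew the outer layer of the skin.

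Expression was measured on 41 arrays, 20 of mice on the control diet and 21 of mice on the high fat diet. All were wild type female C57B6/J mice aged 15 weeks, fed ad libitum on their diet for 7 weeks from the age of 8 weeks, and the epidermal stem cells came from epidermis. Collection ran in steps of 4 h from ZT0 to ZT20, zeitgeber time being counted from lights on. The control diet had 4, 3, 2, 3, 4 and 4 arrays at these times and the high fat diet 3, 4, 2, 4, 4 and 4. The plan was 4 mice per diet and time point. Since no label says that the arrays come from different mice, p-values here reflect array-to-array spread, which may be technical. Mice killed on 1 day belonged to 1 time point, so collection day and time point cannot be told apart. Whether both diets were collected on the same day within a time point is not settled by the sources. A diet difference at 1 time point may therefore also be a difference between days.

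Values are on the log2 scale and compare a gene with itself across arrays, never 1 gene with another. In bulk samples like these, fewer cells of a type and less RNA per cell cannot be told apart. Correlations between arrays ran from 0.9377 to 0.9949. All 8 basal keratinocyte markers were measured, and the list lay lowest in the 2 control arrays of ZT8, at -0.496 ± 0.112 (SD, n = 2) around the mean of the 12 groups, with the 2 high fat arrays of ZT8 at -0.58 and 0.01. The suprabasal list (8 of 8 measured) had its highest group mean in the same control arrays, at 0.453 ± 0.141 (SD, n = 2). The control arrays of ZT8 and 1 of the 2 high fat arrays therefore stand apart from the other groups on the basal list. The counts for the diet average, the time points in control and the control cosine are given with and without ZT8.

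Members with a known restriction to other tissues were kept in the counts. Psma8 is an alpha subunit known from testis and Psmb11 a beta subunit known from thymus, and whether either was above background is unknown here. Psmc3ip matches the symbol pattern but encodes a factor of meiotic recombination, HOP2. It stays in the counts below as a cap gene by its symbol.

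The promoters of the members were searched for motifs known from clock, stress and interferon control. RefSeq promoters (GRCm38.p6, 250 bases before to 50 after the gene start) were at hand for 39 of the 47 members, and Psma8, Psmb1, Psmb2, Psmb7, Psmc3, Psmd3, Psmd7 and Psmg2 had no entry. The clock E-box CACGTG stood in 5 members (12.8%) against 8.09% of 27025 genes. The antioxidant element TGACNNNGC, the kind of site bound by Nrf factors, stood in 4 members (10.3%) against 14% of all genes. The interferon site TTCNNNGAA was found in 3 members (7.69% against 9.55%), the CCAAT box in 15 (38.5% against 41.1%), and the D-box TTATGTAA in none (0 of 39, 1.11% of all genes). Both strands were searched, any overlap of 2 motifs was allowed, and a match is a description of these letters, not of a bound site. The windows of the clock, stress and interferon motifs in members that rose at ZT8 or ZT12 follow, 5′ to 3′ on the gene's strand, with the motif in capitals.
Psmb5, chr14:54618014-54618062, minus strand, antioxidant element: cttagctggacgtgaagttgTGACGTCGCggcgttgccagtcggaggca
Psmb6, chr11:70525328-70525376, plus strand, antioxidant element: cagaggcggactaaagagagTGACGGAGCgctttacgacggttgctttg
Psmd12, chr11:107479278-107479309, plus strand, antioxidant element on the opposite strand: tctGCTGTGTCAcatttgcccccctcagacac
Psmd9, chr5:123228139-123228187, plus strand, antioxidant element: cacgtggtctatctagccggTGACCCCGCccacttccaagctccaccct
Psmd9, chr5:123228119-123228164, plus strand, E-box: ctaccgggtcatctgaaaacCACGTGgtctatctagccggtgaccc
Psma4, chr9:54950699-54950744, plus strand, E-box: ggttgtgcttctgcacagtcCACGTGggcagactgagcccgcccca
Psmb10, chr8:105938483-105938528, minus strand, E-box: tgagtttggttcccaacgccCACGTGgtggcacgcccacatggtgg
Psme3ip1, chr8:94601844-94601889, minus strand, E-box: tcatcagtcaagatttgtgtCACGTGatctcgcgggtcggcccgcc
Psmb8, chr17:34198078-34198126, plus strand, interferon site: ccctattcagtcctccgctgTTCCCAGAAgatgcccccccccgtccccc
The first bases of these motifs lay 47, 9 and 247 bases before the start in Psmb5, Psmb6 and Psmd12, 140, 116 and 143 in Psma4, Psmb10 and Psme3ip1, and 97 in Psmb8. In Psmd9 the antioxidant element lay 31 and the E-box 51 bases before it.

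At ZT12, the start of the night when mice become active, values of proteasome genes were higher under high fat feeding in all classes. Of 47 members 22 rose and 1 fell (limma, adjusted p under 0.05), where 13.6% of all genes rose and 4.44% fell. The difference was positive for 44 of 47, with a median of 0.311 on the log2 scale against 0.053 over all genes. Those that rose were 12 of 19 core genes (median 0.352), 5 of 19 cap genes (0.246) and 5 of 9 others (0.455). A second background was taken from the 4274 genes with the highest mean signal, which holds 36 members. Mean signal also depends on the probes and is used here only to choose this background. Of these genes 20.3% rose and 8.47% fell, with a median of 0.066, while 19 of the 36 members among them rose. In 30 of 47 members every high fat array of ZT12 lay above every control array, and in 0 every one lay below, against 20.6% and 7.64% of all genes.

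Of the 3 catalytic subunits, Psmb5 and Psmb6 passed at ZT12 and Psmb7 did not. Psmb5, the subunit with chymotrypsin-like activity, read 9.96, 10.1 and 10.15 in the control arrays of ZT12 and 10.42, 10.53, 10.35 and 10.39 in the high fat arrays. Every high fat array lay above the control arrays, and the difference was 0.352 ± 0.117 (SE, log2, adjusted p = 0.0334, limma). It passed in 3 of 7 fits that each left out 1 array of ZT12, and not without control replicate 1 or 2 or high fat replicate 1 or 2 (adjusted p up to 0.145, limma). Psmb6, with caspase-like activity, read 10.26, 10.23 and 10.29 against 10.9, 10.83, 10.64 and 10.66, groups well apart, a 1.42-fold rise (adjusted p = 0.000943). Psmb7, with trypsin-like activity, read 10.39, 10.45 and 10.37 against 10.58, 10.98, 10.6 and 10.57. The groups did not overlap, but high fat replicate 2 stood above the other 3, and the difference of 0.281 ± 0.137 did not pass (adjusted p = 0.153, limma).

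Of the inducible subunits, Psmb8 and Psmb9 passed, and the high fat arrays spread widely for Psmb8 and Psmb10. Psmb9 read 9.95, 9.85 and 9.9 on the control diet and 10.19, 10.07, 10.18 and 10.18 on the high fat diet, a rise of 0.259 ± 0.063 (adjusted p = 0.00484, limma). Its other probe sets had differences of 0.1 ± 0.08, which did not pass, and 0.43 ± 0.15, which did (adjusted p = 0.0463, limma). Psmb8 read 9.22, 8.94 and 9.4 against 9.98, 9.52, 9.84 and 9.47, and rose by 0.513 ± 0.157 (adjusted p = 0.0218). The rise of Psmb8 passed in 3 of 7 such fits, and not without control replicate 1 or 2 or high fat replicate 1 or 3 (adjusted p up to 0.154, limma), and its other probe set had 0.16 ± 0.07 (adjusted p = 0.124). Psmb10 read 8.39, 8.29 and 8.42 against 8.96, 8.37, 9 and 8.26, so high fat replicates 1 and 3 lay above the controls, replicate 2 among them and replicate 4 below them. Its difference of 0.278 did not pass (adjusted p = 0.2, limma).

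Both PA28 activator genes rose at ZT12. Psme1 read 9.8, 9.67 and 9.73 on the control diet and 10.44, 10.13, 10.27 and 9.97 on the high fat diet at ZT12, all above the controls, a 1.38-fold rise (adjusted p = 0.000961, limma). Psme2 read 8.59, 8.83 and 8.68 against 9.43, 9.22, 9.19 and 8.91, and rose 1.4-fold (adjusted p = 0.029), passing in 2 of 7 fits that left out 1 array, those without control replicate 2 or high fat replicate 4 (adjusted p up to 0.114 in the others, limma). The nuclear activator Psme3 had a difference of -0.053 ± 0.08 (adjusted p = 0.685). Psmf1 rose by 0.405 ± 0.128 (adjusted p = 0.0255), while its 3 other probe sets had differences of 0.4 ± 0.24, -0.05 ± 0.08 and -0.08 ± 0.1 that did not pass.

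Among the alpha and structural beta subunits, Psma7 read 9.81, 9.59 and 9.84 on the control diet and 10.42, 10.4, 10.16 and 10.42 on the high fat diet at ZT12, a 1.52-fold rise (adjusted p = 0.00292, limma), with 0.34 ± 0.14 in its other probe set (adjusted p = 0.0902). Psma4 rose by 0.569 ± 0.127 (adjusted p = 0.0025). Psmb1 read 9.39, 9.42 and 9.47 against 10.12, 9.94, 9.95 and 9.9, narrow groups with a wide gap, and rose by 0.546 ± 0.117 (adjusted p = 0.00169). Psmb3 read 10.53, 10.52 and 10.64 against 11.21, 10.99, 11.05 and 11.15 and rose by 0.535 ± 0.086 (adjusted p = 0.00012). Its other probe set rose by 0.71 ± 0.17. Psma2, Psma5, Psma6 and Psmb4 also rose, by 0.352, 0.501, 0.311 and 0.388. Psma1, Psma3, Psmb2 and Psmb11 did not pass. The 1 member that fell was Psma8, from 5.55, 5.47 and 5.46 to 5.47, 5.31, 5.35 and 5.27, overlapping groups with a difference of -0.142 ± 0.047 (adjusted p = 0.0343, limma). It passed in 2 of 7 fits that left out 1 array, those without control replicate 3 or high fat replicate 1 (adjusted p up to 0.171 in the others, limma).

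In the cap, fewer genes passed, though all 19 had a positive difference at ZT12. Psmc3, an ATPase of the ring, read 8.44, 8.63 and 8.78 on the control diet and 9.19, 9.19, 9.36 and 9.19 on the high fat diet, a 1.53-fold rise (adjusted p = 0.000299, limma). The ATPase Psmc1 read 9.82, 9.54 and 9.68 against 10.37, 9.98, 10.15 and 10.14 and rose by 0.476 ± 0.101 (adjusted p = 0.00157), with 0.04 ± 0.03 in its other probe set. Psmc4, Psmc2 and Psmc5, also ATPases, had differences of 0.078, 0.139 and 0.248 that did not pass, but the other probe set of Psmc4 rose by 0.32 ± 0.08 (adjusted p = 0.00519, limma). Psmd8, a lid subunit, read 10.7, 10.58 and 10.44 against 11.08, 11.06, 10.99 and 10.92 and rose 1.35-fold (adjusted p = 0.000291). The lid subunit Psmd12 and the chaperone Psmd9 rose by 0.356 and 0.299, but of the other probe sets of Psmd9, 1 fell by 0.79 (adjusted p = 0.0162, limma) and 1 had 0.09 ± 0.08. Psmd4, the ubiquitin receptor, had 0.377 ± 0.137 (adjusted p = 0.0519), and its other probe sets 0.54 ± 0.14 (adjusted p = 0.00703) and -0.04 ± 0.09. Core against cap was not tested as a difference between classes, so the larger count in the core is a description.

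The largest differences of ZT12 were in core assembly chaperones. Psmg4 read 7.68, 7.65 and 7.95 on the control diet and 8.8, 8.32, 9.06 and 8.41 on the high fat diet, a 1.85-fold rise (0.886 ± 0.218, adjusted p = 0.00512, limma). Its other probe set rose by 0.26 ± 0.05. Psmg3 read 7.28, 7.12 and 7.1 against 8.08, 7.71, 7.83 and 8 and rose 1.67-fold (adjusted p = 0.000139). Both genes were clear of overlap, and Psmg3 at ZT12 on the high fat diet was above all 20 control arrays, which ran from 6.74 over a median of 7.18 to 7.64. Psmg1 and Psmg2 had differences of 0.455 and 0.351 that did not pass (adjusted p = 0.16 and 0.196). Psmg1 was the member whose mean was higher on the high fat diet at 6 of 6 time points.

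**Figure D1:**
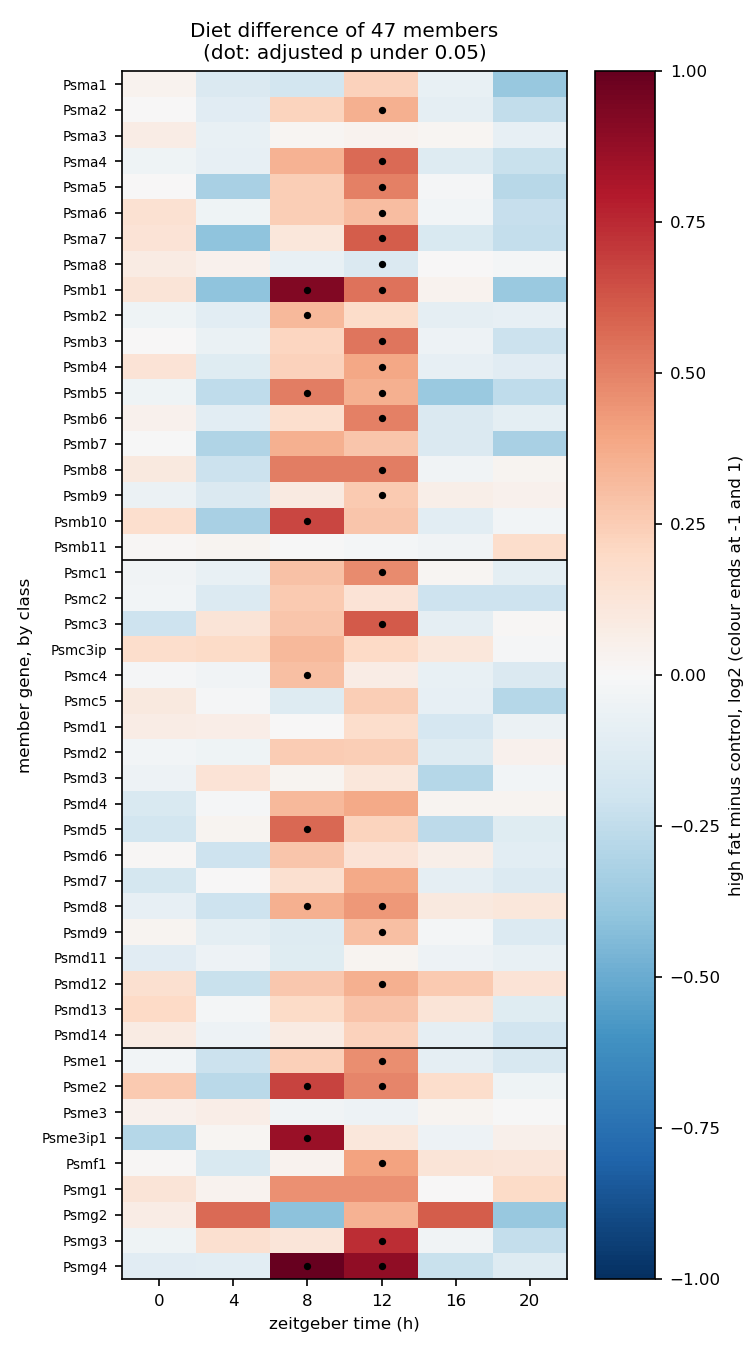
Colour gives the high fat minus control difference (log2) of each of the 47 members (rows, grouped as core, cap and others) at the 6 zeitgeber times (columns, h). Dots mark adjusted p under 0.05, with 10 dots at ZT8, 23 at ZT12 and 0 at the other 4 times. Colour is limited to the range from -1 to 1.

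The ZT12 count held when arrays were left out, with 16 to 26 members past the threshold, and was 21 when the ZT12 arrays were fitted alone. No share of all genes is given for these fits. Other measures moved with it: the leukocyte and Langerhans cell list (12 of 12 measured) lay at 0.196 ± 0.085 (SD, n = 4, range 0.08 to 0.28) in the high fat arrays of ZT12 and at -0.057 ± 0.029 (SD, n = 3, range -0.09 to -0.03) in the control arrays, with 6 markers higher and 1 lower. The hair bulge list (6 of 6 measured) lay at 0.147 ± 0.147 (SD, n = 4, range -0.02 to 0.32) and -0.252 ± 0.04 (SD, n = 3, range -0.3 to -0.22), again without overlap, with 2 markers higher and 1 lower. The melanocyte list (6 of 6) lay lower on the high fat diet, at -0.141 (range -0.2 to -0.1) against 0.042 (range 0.03 to 0.05), with 2 lower. The suprabasal list lay at -0.029 (range -0.1 to 0.01) against -0.189 (range -0.28 to -0.09), with 2 higher. The basal list was at 0.116 and 0.066 with 1 higher, and 0 of the 6 fibroblast and 0 of the 4 endothelial markers passed (limma). The 3′ minus 5′ signal of the Gapdh control probe sets, a measure of RNA quality, was at -0.27 and -0.31. The part of these in the proteasome result was not tested.

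At ZT8 the high fat diet was again associated with higher values, but on 2 arrays per diet. Of 47 members 10 rose and 0 fell (limma), against 5.42% and 2.92% of all genes, with a median of 0.246 against 0.03 over all genes. Of the 4274 genes with the highest mean signal 12.3% rose and 4.45% fell, and 7 of the 36 members among them rose. In 23 of 47 members both high fat arrays lay above both control arrays and in 2 below, against 28% and 18.5% of all genes. Lying above was thus more frequent among the members than over all genes, and lying below less frequent. The genes that rose were Psmb1, Psmb10, Psmb5 and Psmb2 in the core, Psmd5, Psmd8 and Psmc4 in the cap, and Psmg4, Psme3ip1 and Psme2 among the others. Of these, 5 also passed at ZT12 (Psmb1, Psmb5, Psmd8, Psme2 and Psmg4), which is 5 of the 10 at ZT8 and 5 of the 23 at ZT12.

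Much of this came from low values in the control arrays of ZT8. Psmg4 read 7.44 and 6.3 in these arrays, 6.3 being its lowest value of all, and 8.09 and 8.08 in the high fat arrays, a difference of 1.213 ± 0.285 (adjusted p = 0.00683, limma). Its other probe set had a difference of 0 ± 0.06 there. Psmb1 read 9.04 and 8.54 against 9.56 and 9.88 and differed 1.9-fold (adjusted p = 0.000301, limma). The lower control value was again the lowest of all 41 arrays. Psme3ip1 read 7.9 and 7.28 against 8.45 and 8.45, a rise of 0.863 ± 0.171 (adjusted p = 0.00173).

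Of the inducible and activator genes, Psme2 and Psmb10 passed at ZT8, while Psmb8 (0.512, adjusted p = 0.121), Psmb9 (0.086, 0.573) and Psme1 (0.238, 0.238) did not (limma). Psmb9 was not low in the control arrays of ZT8, which read 9.93 and 9.99 where its control values ran from 9.68 to 10.02. Psme2 read 8.18 and 7.73 in the control arrays of ZT8 and 8.56 and 8.7 in the high fat arrays, and rose by 0.674 ± 0.206 (adjusted p = 0.0376, limma). Psmb10 read 7.98 and 7.65 against 8.69 and 8.28, and rose by 0.667 ± 0.196 (adjusted p = 0.0307). The catalytic Psmb5 read 9.83 and 9.55 against 10.03 and 10.37, a rise of 0.509 ± 0.153 (adjusted p = 0.0343). Psmd5 read 8.69 and 8.03 against 8.79 and 9.07, and rose by 0.574 ± 0.172 (adjusted p = 0.0337). Psmd8, Psmb2 and Psmc4 rose by 0.352, 0.326 and 0.304. The other probe set of Psmc4 had 0.16 ± 0.1 and did not pass (adjusted p = 0.382, limma). Both control arrays lay below both high fat arrays in each of these genes. Control replicate 2 was the lower of the 2 control arrays in 9 of the 10 genes that rose, Psmc4 being the other one.

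Single arrays decided most of these calls. Psmb1 passed in all 4 fits that each left out 1 array of ZT8 (0.68 to 1.176), while Psmg4, Psme3ip1 and Psmc4 passed in 3 of 4, Psmb10, Psmb5 and Psmd5 in 2 of 4, and Psmd8 and Psme2 in 1 of 4. Without control replicate 2 the difference of Psmg4 was 0.645 (adjusted p = 0.296), that of Psme3ip1 0.554 (0.127), of Psmd5 0.246 (0.563), of Psme2 0.449 (0.378), of Psmb10 0.502 (0.294), of Psmb5 0.369 (0.327) and of Psmd8 0.343 (0.152, limma). Without high fat replicate 2, Psmb5, Psmd5, Psmd8, Psme2 and Psmc4 did not pass (adjusted p from 0.0641 to 0.289). Without high fat replicate 1, Psmb10 and Psme2 did not (0.3 and 0.0978), nor did Psmd8 without control replicate 1 (0.0643).

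The ZT8 count fell to 2 without control ZT8 replicate 2 and to 4 without high fat ZT8 replicate 2, and was 0 when the 4 arrays of ZT8 were fitted alone, where 0 of all genes passed. Beside it, the leukocyte list lay at -0.391 in the control and -0.136 in the high fat arrays of ZT8 (3 of 12 markers higher), the basal list at -0.496 and -0.286, and the hair bulge list at 0.568 and 0.128. Their part was not tested.

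At the other 4 time points no member passed, and at ZT4, ZT16 and ZT20 most differences ran the other way, with 13, 16 and 11 of 47 positive. At ZT0 the median was 0.008, with 1 member at an unadjusted p under 0.05 against 12.9% of all genes (limma), and with 0.45% of all genes called higher and 0.404% lower after adjustment. At ZT4 the median was -0.076 with 12 members under that p against 11.9% of all genes (after adjustment 0.181% higher, 0.205% lower). At ZT16 it was -0.049 with 7 against 16.1%, a share near the background (0.579% and 0.661% after adjustment), and at ZT20 -0.102 with 15 against 14.8% (0.31% and 0.392%). At ZT20 the core median was -0.215, and all 8 alpha subunits and all 7 constitutive beta subunits had negative differences. Psmb5 at ZT16 read 10.17, 10.17, 9.96 and 9.92 on the control diet and 9.38, 9.75, 9.9 and 9.69 on the high fat diet, a difference of -0.375 ± 0.108 that did not pass (adjusted p = 0.0645). At ZT20, control replicate 2 read lower than the other 3 control arrays for several members, such as Psmb6 at 10.11 beside 10.82, 10.63 and 10.67. Without it 7 members passed at ZT20, all lower on the high fat diet. The shares of all genes given above belong to the fit with all arrays, so this count has no background beside it.

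Averaged with equal weight over the 6 time points, differences between the diets were small. Of 47 members 4 rose and 0 fell (limma), against 5.52% and 2.06% of all genes, a share near the background. The median was 0.043 against 0.016 over all genes, and 12 members had an unadjusted p under 0.05 against 24.3% of all genes, again near the background. Psme2 ran from 7.73 over a median of 8.8 to 9.13 in the 20 control arrays and from 8.47 over 8.87 to 9.48 in the 21 high fat arrays, and rose by 0.214 ± 0.066 (adjusted p = 0.0429). Psmd12 rose by 0.159 ± 0.043 (0.0229), Psmd8 by 0.117 ± 0.032 (0.0246) and Psmc3ip by 0.167 ± 0.043 (0.0165). The ranges of both diets overlapped in each of these genes. The count was 0 without ZT8 and 0 without ZT12.

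For most members the diet difference changed with the time of day. An F test of the 5 diet by time coefficients passed for 28 of 47 (limma), 14 in the core, 8 in the cap and 6 among the others, where 19% of all genes passed. All 7 constitutive beta subunits were among them, and 5 of the 8 alpha subunits. The smallest adjusted p-values in the core belonged to Psmb1 (3.05e-05), Psmb3 (0.000666), Psma2 (0.00117) and Psmb5 (0.00183). In the cap they belonged to Psmd8 (0.000827), Psmc3 (0.00338), Psmc4 (0.00434) and Psmc1 (0.015), and among the others to Psmg3 (0.00202), Psme1 (0.00247), Psmg4 (0.00499) and Psme3ip1 (0.00796). Psmb1 shows the pattern: its high fat minus control difference was -0.404 ± 0.117 at ZT4, 0.928 at ZT8, 0.546 at ZT12 and -0.375 ± 0.108 at ZT20, with adjusted p = 0.128 at ZT4 and 0.0813 at ZT20 (limma). The count was 8 without ZT12 and 0 without both ZT8 and ZT12. The 19% of all genes belongs to the fit with all time points, so these counts have no background beside them.

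**Figure D2:**
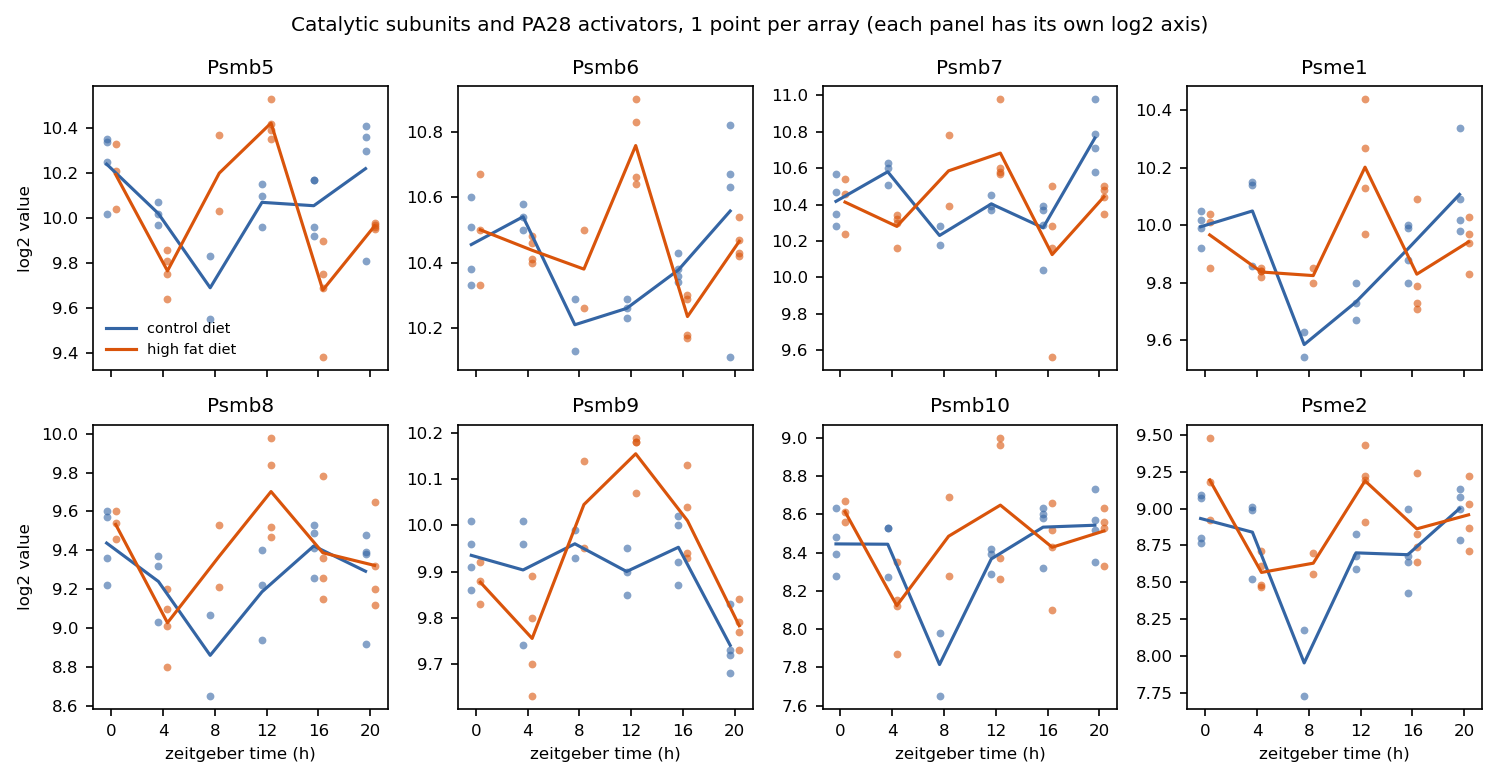
Log2 value of each array (points) and group mean (lines) against zeitgeber time (h) for the 3 catalytic subunits Psmb5, Psmb6 and Psmb7, the inducible subunits Psmb8, Psmb9 and Psmb10 and the activators Psme1 and Psme2, control diet in blue and high fat diet in orange. Each panel has its own axis. The highest of the 12 group means is that of high fat ZT12 in 6 of the 8 panels (control ZT20 in Psmb7 and high fat ZT0 in Psme2), and the lowest is that of control ZT8 in 5.

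Over the day, the 3 classes had their highest group means at ZT12 on the high fat diet and at ZT20 on the control diet. On the control diet the gaps to the next highest time lay within the array spread. Each gene was centred on the mean of its 12 groups and averaged over its class for each array. On the high fat diet all 3 classes were highest at ZT12, the core at 0.267 ± 0.062 (SD, n = 4), the cap at 0.201 ± 0.033 and the others at 0.31 ± 0.144. On the control diet the same classes stood at -0.063 ± 0.038, -0.064 ± 0.034 and -0.118 ± 0.05 (SD, n = 3) at ZT12 and were lowest at ZT8, at -0.18 ± 0.125, -0.109 ± 0.099 and -0.295 ± 0.213 (SD, n = 2). The highest class means of the control diet were at ZT20, 0.12 ± 0.159 in the core, 0.035 ± 0.111 in the cap and 0.044 ± 0.09 among the others (SD, n = 4). Control ZT0 came close in the cap (0.019 ± 0.087) and the others (0.029 ± 0.045, SD, n = 4), as did control ZT4 in the core (0.029 ± 0.077, SD, n = 3). Replicate 2 of control ZT20 lay at -0.113 in the core, -0.123 in the cap and -0.083 among the others, and the other arrays of that group were positive. At ZT16 the high fat core had dropped to -0.128 ± 0.072, and at ZT4 it stood at -0.137 ± 0.038 (SD, n = 4).

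Core against cap was compared array by array, without a test. The mean of the core minus that of the cap lay between -0.092 ± 0.031 (high fat ZT4, SD, n = 4) and 0.085 ± 0.055 (control ZT20, SD, n = 4), and at ZT12 it was 0.001 ± 0.057 (SD, n = 3) on the control and 0.066 ± 0.03 (SD, n = 4) on the high fat diet. On the high fat diet the group means of the core ran from -0.137 to 0.267 and those of the cap from -0.059 to 0.201. The inducible beta subunits were lowest in the control arrays of ZT8 (-0.336 ± 0.16, SD, n = 2) and in the high fat arrays of ZT4 (-0.247 ± 0.117, SD, n = 4), and at high fat ZT12 their arrays spread from 0.09 to 0.5. In high fat ZT12 the classes differed by array as well: the other genes stood at 0.454 and 0.412 in replicates 1 and 3 and at 0.161 and 0.212 in replicates 2 and 4, whereas the cap stood at 0.228, 0.216, 0.206 and 0.154 in replicates 1 to 4.

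**Figure D3:**
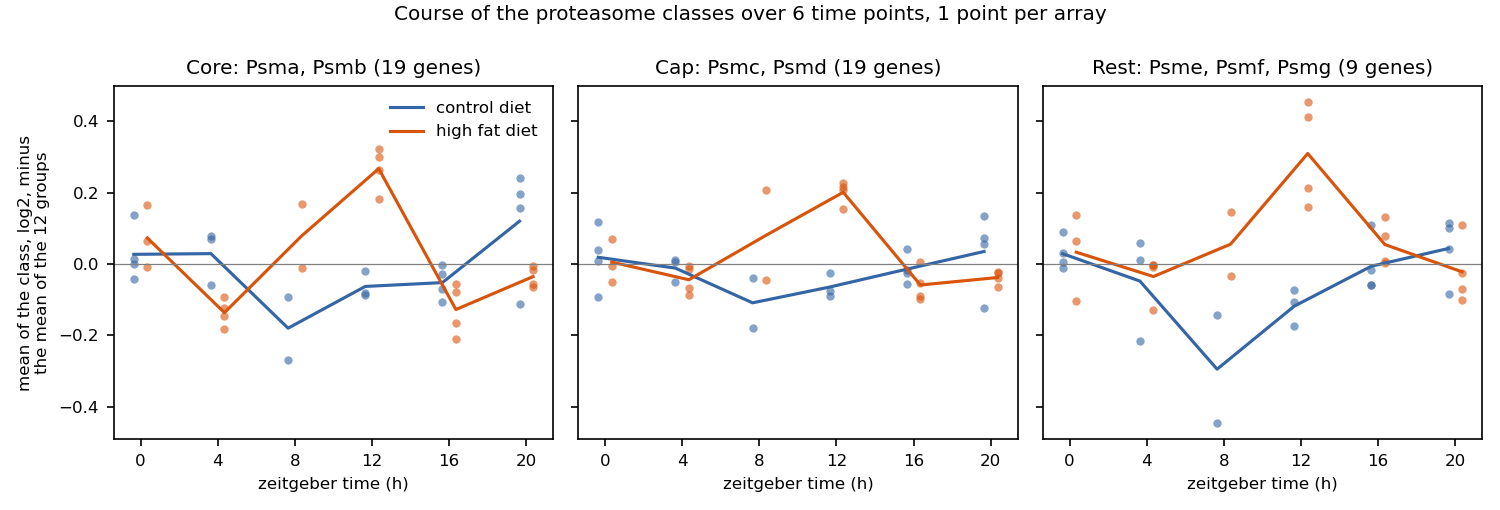
Mean of the 19 core genes, 19 cap genes and 9 other genes in each array (points) with group means (lines) against zeitgeber time (h), in log2 units around the mean of the 12 groups, control diet in blue and high fat diet in orange. The 4 high fat arrays of ZT12 lie above the control arrays of ZT12 in every class, and the lines cross between ZT12 and ZT20.

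By single genes, 30 of the 47 members had the highest of their 12 group means in high fat ZT12 (14 core, 12 cap, 4 others), where 22.4% of all genes did. The lowest group mean was in control ZT8 for 17 members, against 28.2% of all genes, and in high fat ZT16 for 10, against 7.2%. For Psmb5 the high fat arrays of ZT16 lay at 9.38 to 9.9 and those of ZT12 at 10.35 to 10.53, with no overlap between these neighbouring times.

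Differences between the time points of 1 diet, in any shape, passed for 27 members under control feeding and 35 under high fat feeding (limma F test of 5 coefficients), where 43.9% and 41.5% of all genes passed. Of these 21 passed in both diets, which is 21 of 27 and 21 of 35. In the control diet the smallest adjusted p-values were those of Psmb1 (2.6e-05), Psmb2 (0.000135), Psmb10 (0.0129) and Psmb7 (0.0146, as for Psmb5) in the core, Psmd8 (0.000107), Psmc4 (0.00343), Psmd5 (0.0137) and Psmd9 (0.0241) in the cap, and Psme2 (0.000507), Psme1 (0.00103), Psme3ip1 (0.00186) and Psmg4 (0.0134) among the others. In the high fat diet they were those of Psmb9 (1.14e-05), Psmb5 (1.69e-05), Psma2 (2.17e-05) and Psmb1 (2.49e-05), then Psmc2 (2.62e-05), Psmd8 (3.45e-05), Psmd1 (0.000191) and Psmc1 (0.000251), and Psmg3 (2.15e-06), Psmg4 (0.00042), Psme2 (0.00426) and Psme1 (0.00618). The control count was 13 without ZT8 and 14 without control ZT8 replicate 2, and the high fat count was 11 without ZT12. The shares of all genes above belong to the fit with all arrays, so these lower counts have no background beside them. Leaving out a time point also removes coefficients from the test for every gene.

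A 24 h cosine found few members, 2 in the control diet against 6.66% of all genes and 8 in the high fat diet against 11.2%, with 0 in both (limma). At an unadjusted p under 0.05 there were 9 and 20, against 21.3% and 27.6% of all genes. In the control diet these were Psme1, with an amplitude of 0.206 ± 0.052 (SE, log2, distance from mean to peak) and a fitted peak at ZT22, and Psmb2 with 0.143 ± 0.038 and ZT21.7. In the high fat diet they were Psmb9 (amplitude 0.189 ± 0.032, peak at ZT12, adjusted p = 0.000541), Psmb3 (0.212 ± 0.044, ZT10), Psmc1 (0.218 ± 0.049, ZT10.7), Psmc3 (0.214 ± 0.05, ZT10.4), Psmd8 (0.184 ± 0.05, ZT13.1), Psmd3 (0.2 ± 0.037, ZT6.1), Psmg4 (0.491 ± 0.107, ZT11.4) and Psmg3 (0.321 ± 0.08, ZT10.1). Psmd3, a subunit of the lid, stood apart from the other 7 by its morning peak. The other probe sets of Psmb9 (adjusted p = 0.175 and 0.449), Psmb3 (0.0815) and Psmc1 (0.152) did not pass (limma). That of Psmg4 passed, with an amplitude of 0.09 (adjusted p = 0.0169, limma).

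The difference between the diets' cosines passed for 7 members (3.58% of all genes), which were Psmb3 (adjusted p = 0.012), Psmb1 (0.0396), Psma2 (0.0444), Psmc3 (0.0176), Psmc1 (0.0365), Psmc4 (0.0465) and Psmg4 (0.0353) (limma). Fitted peaks of all 47 members, whether or not they passed, gathered at different times: in the control diet 23 fell in the 4 h window centred on ZT20 and 16 in that on ZT0, and in the high fat diet 18 fell in the window on ZT8 and 18 in that on ZT12. Of all genes that passed in the control diet, 31.3% and 13.9% peaked in the windows on ZT20 and ZT0. Of those that passed in the high fat diet, 19.7% and 32.5% peaked in the windows on ZT8 and ZT12. Among these genes ZT20 was thus the most common window in the control diet, as in the members. In the high fat diet it was ZT12, where the members were split evenly between ZT8 and ZT12. Of the members that passed, 1 peaked in the window on ZT20 and 1 in that on ZT0 in the control diet. In the high fat diet 2 peaked in the window on ZT8 and 6 in that on ZT12. Treating each diet's time points as random blocks, 0 members passed in either diet or in their difference (limma), where 137, 66 and 1 of all genes passed. Without ZT12 the high fat count was 2 and that of the difference 0, and without ZT8 the control count was 0.

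**Figure D4:**
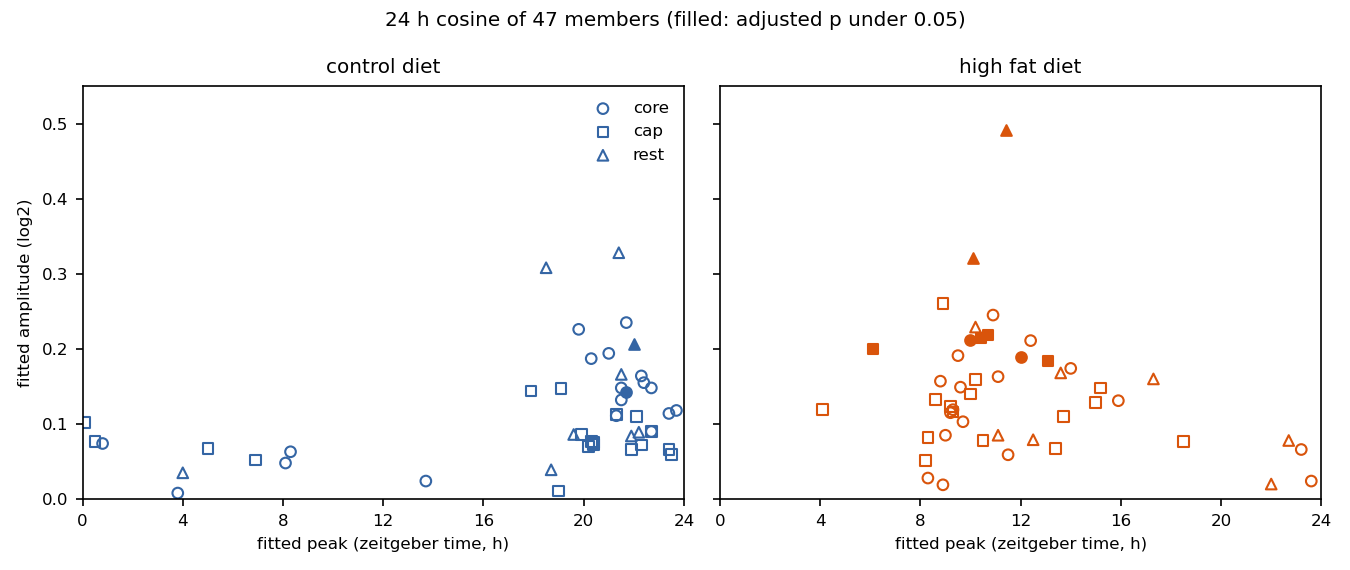
Fitted amplitude (log2) against fitted peak (zeitgeber time, h) of the 24 h cosine for the 47 members, control diet left and high fat diet right. Filled symbols mark adjusted p under 0.05 (2 and 8 members), and shapes mark core, cap and others.

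Among genes that work with the proteasome, 12 of 18 listed partners were measured. At ZT8 2 of the 12 rose (5.42% of all genes), at ZT12 1 rose and 1 fell (13.6% and 4.44%), and at ZT16 1 fell (0.661%), with medians of 0.206 and 0.095 at ZT8 and ZT12. Diet by time passed for 4 of the 12, Sem1, Pomp, Txnl1 and Ubqln4, against 19% of all genes. Ubqln4, a shuttle that carries ubiquitinated proteins, was the one that fell at ZT16 (-0.44 ± 0.11, adjusted p = 0.0333, limma). Sem1, a small subunit of the lid outside the symbol rule, rose by 0.62 ± 0.11 at ZT8 and by 0.51 ± 0.09 at ZT12 (adjusted p = 0.000845 and 0.000224, limma). Pomp, the maturation factor of the core, had differences of 0.46 and 0.31 that did not pass (adjusted p = 0.0631 and 0.0727). Zfand5, which encodes an activator of the proteasome, fell by 0.93 ± 0.26 at ZT12 (adjusted p = 0.0122), and Txnl1, a thioredoxin of the cap, rose by 0.75 ± 0.22 at ZT8 (0.0332). Usp14 and Uchl5, deubiquitinases of the cap, did not pass at either time. Of the 7 genes listed for the p97 segregase, which unfolds substrates ahead of the proteasome, 5 were measured and 1 rose at ZT12, the cofactor Ubxn1 (0.67 ± 0.2, adjusted p = 0.019). Of 6 listed genes of ubiquitin and its activation 1 was measured, Uba6, and did not pass.

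Of 7 listed regulators of proteasome genes 5 were measured. Nfe2l1, which encodes the factor that restores proteasome genes when proteasomes are blocked, had differences of 0.13 ± 0.15 at ZT8 and 0.11 ± 0.11 at ZT12 (adjusted p = 0.621 and 0.521, limma). Nfe2l2, which encodes the antioxidant factor NRF2, rose by 0.33 ± 0.05 on the diet average (adjusted p = 0.000585) and by 0.57 ± 0.13 at ZT0 (0.023), while at ZT12 its difference of 0.24 ± 0.13 did not pass (0.189). In the interferon and antigen processing list, 7 of 12 genes were measured, and 3 rose and 1 fell at ZT12, against 13.6% and 4.44% of all genes. Irf9, Erap1 and Ifi35 rose by 0.45, 0.52 and 0.34, while Nlrc5, a regulator of MHC class I genes, fell by 0.4 (adjusted p = 0.00458). Irf9 went the other way at ZT4, where it fell by 0.62 ± 0.14 (adjusted p = 0.0435, limma). Irf1, Stat2 and Tapbp did not pass at ZT12. On the diet average 0 of these 7 passed (limma).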

How the data were processed

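The deposited values are log2 expression per probe set, made by the authors with RMA per the submitters' processing notes. This method subtracts background, equalises the arrays and combines the probes of a set. Its version, and whether batches were adjusted, is not given in the sources used here. That values are log2 was read from their range of 2.17 to 13.5. Per the labels' protocols, 25 ng of RNA was amplified for 17 cycles and 8 µg of cDNA was labelled. Signal over background is unknown. Precision is limited by how many arrays a group has.

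Of 45141 probe sets, 28898 had 1 gene in the platform annotation, which can be old, 551 had several and 15692 were unnamed. Tests used limma 3.58.1 in R 4.3.3 on all 17097 genes, with a mean per diet and time point (12 groups, 29 residual degrees of freedom), lmFit, eBayes and Benjamini-Hochberg over all genes at 0.05, with no filter. Contrasts were high fat minus control per time point and their mean. F tests covered diet by time and the time points of a diet, and a 24 h cosine was fitted per diet. The procedure was tested on simulated data. Figures used matplotlib 3.10.9 in Python 3.11.15.

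Named with values were the catalytic and inducible subunits, Psme1 and Psme2, and per class up to 3 rises and 3 falls, or the 4 smallest adjusted p-values, of each comparison. Alternatives are given in the closing section. Shares of all genes belong to the fit with all arrays unless stated otherwise, so most counts from alternative fits have no background beside them. The members and lists were chosen with earlier results of these data known.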

Additional observations from a re-analysis of the deposited data

Results flagged for a closer look

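In the high fat arrays of ZT4, the mean of the 9 genes outside core and cap was 8.58 in replicate 4 and 8.7 to 8.71 in the other 3 arrays. Psmb7 read 10.98 in high fat ZT12 replicate 2 and 10.57 to 10.6 in the others, and Psmb9 read 10.07 in the same array and 10.18 to 10.19 in the others. Psmb10 read 8.32 in control ZT16 replicate 1 and 8.58 to 8.63 in the others. Each is a single array far from the rest of its group by Dixon's ratio. Of 77 tests, each of 1 gene or class mean in 1 group of 4 arrays, 4 stood out. That is near the share of about 1 in 20 that chance gives, and the tests share arrays and genes.

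The diet difference varied between time points for 28 members, and the 24 h cosine differed between diets for 7, each by a test of the difference itself (limma).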

How the results depend on the processing

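No named gene changed direction past the threshold under the alternatives run, apart from single probe sets, whose directions were not compared throughout. With each probe set on its own, 1 set of Psmd9 fell at ZT12 (-0.79 ± 0.23, adjusted p = 0.0162, limma), where its main set rose. That set also fell on the diet average (-0.36 ± 0.1, adjusted p = 0.021, limma). The counts of members that changed by over 1.5 times were as follows. With array weights, 4 members passed at ZT8, 3 at ZT16, 4 at ZT20, 1 for the control cosine and 3 for the cosine difference. Averaging all probe sets of a gene, 1 passed at ZT20, and the cap median at ZT8 was 0.18. With the medians of the tested genes subtracted, 2 passed for the diet average and 1 at ZT16. Without ZT8, 0 passed for the diet average, 2 at ZT20, 13 for time points in control, 0 for the control cosine and 3 for the cosine difference. Without ZT12, 0 passed for the diet average, 8 for diet by time, 11 for time points in high fat, 5 and 2 for the control and high fat cosines and 0 for the cosine difference. Without both, chosen after seeing the data, 1 passed for the diet average, 0 for diet by time, 11 and 10 for time points in control and high fat, and 0 for the control cosine and the cosine difference. With the ZT8 arrays alone 0 passed at ZT8. With each diet's time points as random blocks (correlation 0.366), 0 passed for each of the 3 cosine tests. The cause was not tested. No shares of all genes are given beside these counts, so a change in them is not a result about the members alone.

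Leaving out 1 array gave 0 to 8 members for the diet average, 2 to 10 at ZT8, 16 to 26 at ZT12, 0 to 2 at ZT16, 0 to 7 at ZT20, 20 to 31 for diet by time, 14 to 30 and 29 to 36 for time points in control and high fat, 0 to 3 and 6 to 12 for the control and high fat cosines and 2 to 12 for their difference. The class medians at ZT8 then ran from 0.1 to 0.356 in the core, 0.109 to 0.378 in the cap and 0.108 to 0.384 among the others. Same-numbered arrays of both diets did not deviate together (mean correlation -0.065 over 19 pairs, 0.023 for other pairs). No pairing by replicate number was thus seen, though groups of 2 to 4 arrays cannot exclude it. With the replicate block 1 member passed for the control cosine, and the other counts stayed within 1.5 times.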
